A study of Homo sapiens with 3 samples.

Results

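The 9 genes described here encode transcription factors grouped as pioneer and luminal lineage factors of the prostate. They are *FOXA1*, *FOXA2*, *GATA2*, *GATA3*, *GRHL2*, *MEIS1*, *MEIS2*, *PBX3* and *TP63*. Not all mark luminal cells, as *TP63* is a factor of basal cells and *FOXA2* is known from endoderm and neuroendocrine tumours. The 9 genes were chosen by symbol, through the Ensembl identifier of each row, and each filled 1 row of its own among 27024 counted genes. RNA-seq was available from 3 libraries of 22Rv1 WT cells, an established human prostate carcinoma line grown in RPMI with FBS and labelled WT in genotype. The study's methods call the WT samples control clones, so the spread over the 3 libraries may be that between clones of a line, between cultures or of library preparation. The enhancer KO and risk-allele libraries were not analysed here, and with a single group no test between conditions was possible. The libraries held 35675670 to 38629080 recovered reads on these genes.

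FOXA1 and GATA2 are known as pioneer factors, proteins that bind their sites in closed chromatin and make them accessible. In luminal prostate cells they open many enhancers to other factors, while GRHL2 maintains genes of epithelial junctions. MEIS and PBX proteins are homeodomain partners of HOX factors. TP63 is the defining factor of basal cells and its protein is used in pathology as a marker of the basal layer, which adenocarcinoma lacks.

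WT cells held high RNA levels of *FOXA1*, *GATA2* and *GRHL2*, lower levels of *PBX3*, *GATA3* and *MEIS1*, and next to no reads of *FOXA2*, *MEIS2* and *TP63*. A gene was called expressed at 1 CPM (the usual depth-scaled count, here on TMM library sizes) or more in all 3 libraries. By this rule 6 of the 9 factors were expressed, and 3 were not. Of all genes 47.7% were expressed, and of protein-coding genes 63.8%. Levels below are the authors' normalized counts, that is, reads divided by a size factor of the library, and since such counts grow with transcript length, the order, ratios and shares of genes are given per kilobase of the canonical transcript.

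*FOXA1*, the forkhead pioneer factor of luminal cells, was the most abundant of the 9. It is ENSG00000129514 on the minus strand of chromosome 14, from 38058757 to 38065264 (GRCh37, GENCODE annotation, as for the other genes). Its normalized count was 12710.5 in replicate 1, 12659.9 in replicate 2 and 13050.5 in replicate 3, a mean of 12807 ± 212 (SD, n = 3). The libraries lay within a few percent of each other, with an SD of 1.66% of the mean. Per kilobase the level was 3650 ± 60.5 normalized counts (SD, n = 3), and 95.2% of the expressed genes had a lower mean per kilobase. The gene overlaps *TTC6* on the other strand, which had 798, 847.1 and 825.1 normalized counts in replicates 1, 2 and 3, and the strand setting of the counting is not given in the sources used here.

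*GATA2*, a zinc finger factor that binds beside FOXA1 at many prostate enhancers, came next. It is ENSG00000179348 on the minus strand of chromosome 3, from 128198270 to 128212044. It had 7045.8, 7028.9 and 7116.9 normalized counts in replicates 1, 2 and 3, or 7064 ± 46.7 (SD, n = 3). This was the most even of the expressed factors, with an SD of 0.661% of the mean. Per kilobase *GATA2* reached 2088 ± 13.8 normalized counts (SD, n = 3), and the level of *FOXA1* was 1.75 ± 0.0174 times as high (ratio within each library, SD, n = 3). The ranges of the 2 genes over the libraries did not overlap. *GATA2-AS1*, on the other strand of the same locus, had no row among the counted genes.

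*GRHL2*, the grainyhead factor of epithelial cells, is ENSG00000083307 on the plus strand of chromosome 8, from 102504667 to 102681954. Its normalized counts were 3303.3, 3236.9 and 3131.7 in replicates 1, 2 and 3, which gives 3224 ± 86.5 (SD, n = 3). All 3 libraries were close, with an SD of 2.68% of the mean. Per kilobase it had 616 ± 16.5 normalized counts (SD, n = 3), above the mean of 69.0% of expressed genes, and *FOXA1* was 5.93 ± 0.252 times as high (SD, n = 3).

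*PBX3*, a TALE homeodomain factor that pairs with MEIS and HOX proteins, opened the lower group. It is ENSG00000167081 on the plus strand of chromosome 9, from 128509624 to 128729656. It had 384.8, 459.5 and 402.3 normalized counts in replicates 1, 2 and 3, and replicate 2 was the highest. The mean was 416 ± 39.1 (SD, n = 3), or 146 ± 13.8 per kilobase, and 30.9% of expressed genes lay below it per kilobase.

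*GATA3*, known for its part in luminal differentiation of prostate, breast and urothelium, was far below *GATA2*. It is ENSG00000107485 on the plus strand of chromosome 10, from 8087341 to 8117161. Its normalized counts were 166.7, 156.6 and 207.1 in replicates 1, 2 and 3, with replicate 3 the highest, and the mean was 177 ± 26.7 (SD, n = 3). Per kilobase it had 57.3 ± 8.67 normalized counts (SD, n = 3), above 15.0% of expressed genes. *GATA2* was 36.9 ± 4.99 times as high per kilobase (SD, n = 3), and between 31.3 and 40.9 times in the libraries. *GATA3-AS1* on the other strand had 27, 26 and 20 reads, and *GATA3* itself 211, 185 and 263.

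*MEIS1*, a TALE factor that binds HOX proteins on DNA, was the lowest expressed factor. It is ENSG00000143995 on the plus strand of chromosome 2, from 66660584 to 66801001. It had 87.7, 81.2 and 74.8 normalized counts in replicates 1, 2 and 3, or 81.2 ± 6.45 (SD, n = 3), from 111, 96 and 95 reads. Only 3.70% of the expressed genes had a lower mean per kilobase than its 17.8 ± 1.41 normalized counts (SD, n = 3).

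*FOXA2*, *MEIS2* and *TP63* were not expressed by the rule above. *FOXA2*, the forkhead factor of endoderm that is also known from neuroendocrine prostate tumours, is ENSG00000125798 on the minus strand of chromosome 20, from 22561636 to 22566093. It had 1 read in replicate 1, 15 reads in replicate 2 and 1 read in replicate 3. The exact 95% Poisson interval was 0.0253 to 5.57 for 1 read and 8.40 to 24.7 for 15 reads. These intervals do not overlap, but they leave out the spread between libraries. The trended-dispersion test with edgeR, which allows for that spread, gave an unadjusted p of 0.00466 (genes with a mean of 1 read or more). After adjustment for the number of those genes (Benjamini-Hochberg), the p of this test was 0.442, so the difference was not called. In replicate 2 *FOXA2* was at 0.420 CPM, below the limit of 1. The normalized counts were 0.8, 12.7 and 0.8, with a mean of 4.77 ± 6.87 (SD, n = 3) that falls to 0.8 without replicate 2. Such intervals and floors hold for counting error alone, as PCR copies of a molecule are counted too.

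*MEIS2*, the paralogue of *MEIS1*, is ENSG00000134138 on the minus strand of chromosome 15, from 37181405 to 37393500. It had 1, 3 and 1 reads in replicates 1, 2 and 3, with a mean of 1.37 ± 0.981 normalized counts (SD, n = 3), and of 0.8 without replicate 2. No library exceeded 3 reads, the floor used here for detection, so *MEIS2* was at or under the limit of these libraries. *TP63*, ENSG00000073282 on the plus strand of chromosome 3 from 189349178 to 189615065, had 0 reads in each of the 3 libraries. A count of 0 allows up to 3 reads by the one-sided 95% limit that serves as the floor (3.69 reads by the two-sided interval used for *FOXA2*), and 3 reads are 0.0840 CPM in the shallowest library and 0.514 normalized counts per kilobase. Set against that floor of 3 reads in each library, *FOXA1* was at least 7026 times as abundant per kilobase as *TP63*.

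In the order of levels per kilobase, each of the 6 expressed factors was separated from the next by more than the spread over the libraries. *FOXA1* came first, followed by *GATA2*, *GRHL2*, *PBX3*, *GATA3* and *MEIS1*, and then by *FOXA2*, *MEIS2* and *TP63*. The closest neighbours were *FOXA1* and *GATA2*, at a ratio of means of 1.75, and the next closest were *PBX3* and *GATA3*, at 2.55. *FOXA2* and *MEIS2* were the only neighbours whose ranges overlapped, since *MEIS2* in replicate 2, at 0.456 normalized counts per kilobase, lay above *FOXA2* in replicates 1 and 3, at 0.315. Within each library *FOXA2* was the higher of the pair per kilobase. In replicates 1 and 3 both genes had 1 read, so the difference there came from transcript length alone. A paired exact permutation test over 3 libraries cannot give a p below 0.25, so none is given for these differences.

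The promoters of 3 of these genes are shown because they set an abundant factor beside a pair that gave almost no reads. Each is the 250 bases before the annotated transcription start in RefSeq (GRCh38.p14), and capitals mark CG dinucleotides, the sites of DNA methylation in mammals. *FOXA1* is shown from chr14:37595250-37595499 on the minus strand, *MEIS2*, the first of its 2 starts, from chr15:37099107-37099356 on the minus strand and *TP63* from chr3:189631139-189631388 on the plus strand.
FOXA1: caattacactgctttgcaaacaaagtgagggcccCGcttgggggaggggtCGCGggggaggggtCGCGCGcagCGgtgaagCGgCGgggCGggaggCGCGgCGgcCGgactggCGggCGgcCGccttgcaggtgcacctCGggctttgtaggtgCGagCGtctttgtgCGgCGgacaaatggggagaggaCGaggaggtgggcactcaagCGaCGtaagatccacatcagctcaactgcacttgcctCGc
MEIS2: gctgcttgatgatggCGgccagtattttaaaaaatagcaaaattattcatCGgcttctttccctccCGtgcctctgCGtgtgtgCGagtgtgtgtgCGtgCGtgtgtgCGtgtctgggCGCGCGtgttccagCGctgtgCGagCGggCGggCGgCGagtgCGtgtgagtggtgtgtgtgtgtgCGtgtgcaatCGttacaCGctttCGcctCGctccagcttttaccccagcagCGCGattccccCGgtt
TP63: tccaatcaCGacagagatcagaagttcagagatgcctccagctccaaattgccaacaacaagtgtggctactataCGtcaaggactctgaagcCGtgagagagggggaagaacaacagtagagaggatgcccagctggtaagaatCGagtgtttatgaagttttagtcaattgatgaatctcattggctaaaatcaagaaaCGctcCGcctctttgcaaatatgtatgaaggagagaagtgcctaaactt
The *FOXA1* and *MEIS2* windows shown held 26 CG dinucleotides each, and 80.4% of 35116 RefSeq promoters of this length held fewer. The second *MEIS2* window held 13, and 53.4% of promoters held fewer. The *TP63* window, the only one matched for this gene, held 6, and 38.1% of promoters held fewer, against a median of 11 over all promoters. Other starts of *TP63* were not examined. The windows shown of *MEIS2*, with at most 3 reads in a library, and *FOXA1*, with at least 14960, had equal CG counts. Whether CG content relates to level was not tested. *PBX3* had the most CG dinucleotides of the factors matched, 36 in its window. In all, 14 windows of 7 of the factors were matched, and *FOXA2* and *GRHL2* were not. A search of both strands found the MEIS-type letters TGACAG in the *PBX3* window and in 2 of the *GATA3* windows, and 13.0% of all promoters hold them. The forkhead letters TGTTTAC, the GATA letters AGATAA and the grainyhead letters AACCGGTT were in none of the 14 windows, and occurred in 2.98%, 9.17% and 0.117% of all promoters. These matches describe the letters only and say nothing of binding.

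Within each family, the share of a gene in the summed level per kilobase was computed in each library. *FOXA1* took 99.8% ± 0.0126 (SD, n = 3) of the FOXA level, and *FOXA3*, the liver-enriched paralogue, had 18, 8 and 19 reads. *GATA2* took 91.2% ± 0.787 (SD, n = 3) of the GATA level and *GATA3* took 2.50% ± 0.348. The second GATA gene of the line was *GATA6*, a factor of endoderm and heart, with 519 ± 60.3 normalized counts and 6.25% ± 0.672 of the family (SD, n = 3). Per kilobase *GATA6* was 2.52 ± 0.390 times as high as *GATA3* (SD, n = 3), and it was the higher of the pair in each library. *GATA1* had 0, 0 and 1 reads, *GATA4* had 0, 4 and 0 and *GATA5* had 1 read in each library, all near or under the floor. *TRPS1*, a GATA-type repressor, had 1084 ± 85.0 normalized counts (SD, n = 3). Of the FOG cofactors, which bind GATA zinc fingers, *ZFPM1* had 599 ± 88.0 normalized counts (SD, n = 3) and *ZFPM2* had 1, 0 and 12 reads.

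*GRHL2* took 86.3% ± 0.261 (SD, n = 3) of the GRHL level. *GRHL1*, its paralogue of skin and other epithelia, had 345 ± 14.9 normalized counts, and *GRHL2* was 6.38 ± 0.149 times as high per kilobase (SD, n = 3). *GRHL3* had 3, 5 and 7 reads. In the CP2 branch of the family, *UBP1* had 3387 ± 26.1 normalized counts and *TFCP2L1* had 360 ± 29.4 (SD, n = 3), whereas *TFCP2* had 15, 9 and 6 reads. The level of *UBP1* per kilobase was 1.32 ± 0.0446 times that of *GRHL2* (SD, n = 3).

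Among the TALE factors, *PBX3* and *MEIS1* were not the leading members. *PBX2* took 76.5% ± 0.970 of the PBX level and *PBX3* took 15.4% ± 1.21 (SD, n = 3), and *PBX2* was 4.98 ± 0.437 times as high as *PBX3* per kilobase. *PBX2* was counted from 7 rows with identical reads, which were merged to 1. *PBX4* had 36, 35 and 30 reads. *MEIS3* had 149, 60 and 135 reads, with replicate 2 the lowest, and per kilobase it was 3.03, 1.41 and 3.21 times as high as *MEIS1* in replicates 1, 2 and 3. The share of *MEIS1* in the MEIS level was 24.8%, 41.0% and 23.7% in replicates 1, 2 and 3. *PKNOX1*, another partner of PBX proteins, was 11.1 ± 0.737 times as high as *MEIS1* per kilobase (SD, n = 3), and *PKNOX2* had 0 reads. The repressors *TGIF1* and *TGIF2* had 357 ± 23.5 and 1200 ± 26.3 normalized counts (SD, n = 3). *PBXIP1*, which binds PBX proteins, had 781 ± 24.6. Of the 9 other genes on the TALE list, 7 were expressed.

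*TP73*, a paralogue of *TP63* known from multiciliated and neural cells, had 63.0 ± 4.98 normalized counts (SD, n = 3) from 85, 76 and 73 reads, where *TP63* had none.

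Of the 41 forkhead genes other than *FOXA1* and *FOXA2*, 17 were expressed (41.5%), beside 63.8% of protein-coding genes. The 41 include *FOXA3*, which was not expressed, and 9 of them had 0 reads in every library. *FOXM1*, the forkhead factor of dividing cells, was the highest at 1800 ± 38.3 normalized counts per kilobase (SD, n = 3), and *FOXA1* was 2.03 ± 0.0186 times as high. *FOXK2* followed at 702 ± 5.94, *FOXJ3* at 498 ± 18.1, *FOXD4* at 437 ± 33.2 and *FOXK1* at 345 ± 11.9 normalized counts per kilobase. *FOXA1* was thus the most abundant of the forkhead genes examined in each library.

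The spread over the WT libraries was tested against that of genes at the same level. The test was a negative binomial chi-square with edgeR's trended dispersion over the 14646 genes that averaged 10 or more reads, and p-values were adjusted by the Benjamini-Hochberg method. The 6 expressed factors passed the minimum and the other 3 did not. None of the 6 varied at an adjusted p under 0.05, while 0.348% of all tested genes did. At an unadjusted p under 0.05 the count was 0 of 6, beside 4.84% of all tested genes, and the lowest p was that of *GATA3*, at 0.278 (edgeR dispersion, adjusted p 1.00). With edgeR's common dispersion the count was 0 of 6, beside 3.34% of all genes. A chi-square for sampling noise alone, which takes reads as independent, called *GATA3* (adjusted p 0.0228 after Benjamini-Hochberg adjustment, from 211, 185 and 263 reads) and *PBX3* (0.0290, from 487, 543 and 511 reads), 2 of the 6, while it called 41.9% of all genes. *FOXA2* could be tested only with the lower minimum, where its unadjusted p was 0.00466 in the trended-dispersion test with edgeR and, as given above, its adjusted p missed the threshold.

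The label of luminal factors was compared with marker lists of the prostate cell types. Of 18 luminal markers with a row, 17 were expressed, led per kilobase by *KRT8* at 14104 ± 442 and *KRT18* at 11672 ± 956 normalized counts (SD, n = 3). *KRT19* reached 5966 ± 337 and *HOXB13* 3276 ± 65.9. The secreted protein *MSMB* was the exception, with 1, 2 and 1 reads. Markers of basal cells were low or at 0, and 5 of 16 had no read in any library, *KRT5*, *KRT6A*, *KRT14*, *KRT17* and *DSG3*. The defining basal markers *TRIM29* and *COL17A1* had at most 5 and 2 reads in a library and *KRT15* had 31, 16 and 21. The 4 basal markers that were expressed included *ITGA6*, *LAMB3* and *CAV1*, at 23.3 ± 1.58, 21.8 ± 5.97 and 20.8 ± 4.99 normalized counts per kilobase (SD, n = 3). The median per kilobase was 1877 over the luminal list and 0.615 over the basal list. Summed without division by length, the level was 146201 to 148483 normalized counts over the luminal list and 381 to 422 over the basal list. In bulk RNA, fewer cells of a type and less RNA per cell cannot be told apart.

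**Figure D1:**
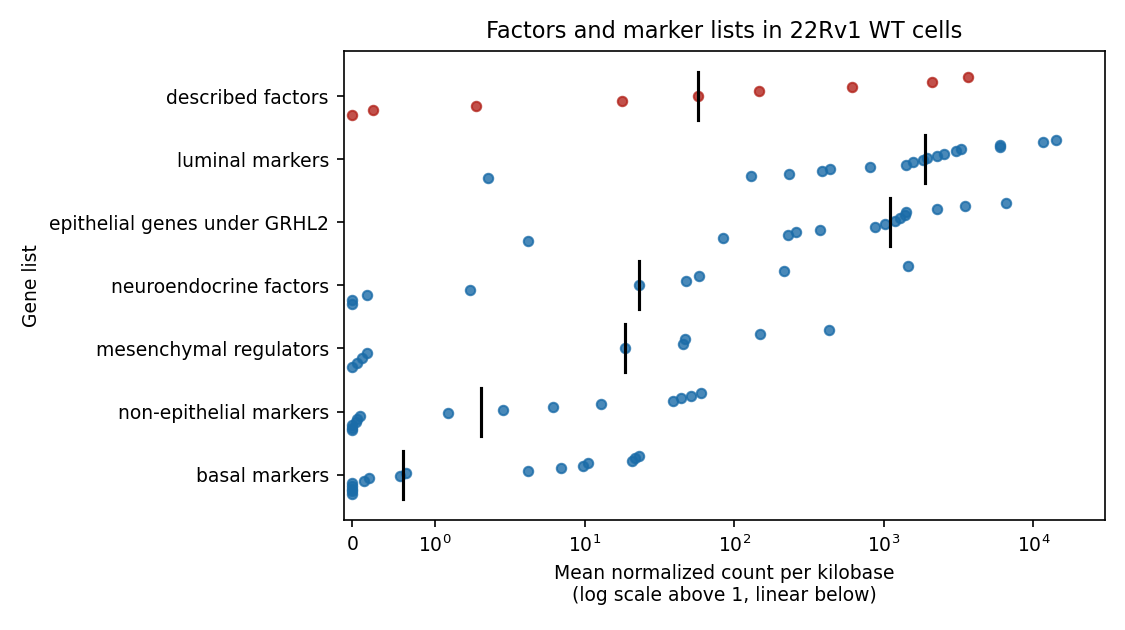
Mean level per kilobase over the 3 WT libraries (horizontal axis, log scale above 1 and linear below) for the 9 factors (red) and the genes of each marker list (blue), 1 point a gene, with the list's median as a bar. The luminal median is 1877 and the basal median 0.615 normalized counts per kilobase.

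*HOXB13*, the posterior HOX factor of prostate, was close to *FOXA1* in abundance, at 0.898 ± 0.0214 of its level per kilobase (SD, n = 3), and was the lower of the pair in each library.

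Of 14 epithelial genes known as targets or partners of GRHL2, 13 were expressed. The highest were *CLDN7* at 6561 ± 89.7, *CLDN4* at 3494 ± 167 and *CDH1* at 2263 ± 8.31 normalized counts per kilobase (SD, n = 3), all encoding junction proteins. *RAB25*, a small GTPase of epithelial trafficking, had 8, 9 and 0 reads. On the opposing side, *ZEB1* had 2, 1 and 1 reads, *ZEB2* had 1, 1 and 0 and *SNAI2* had 1, 0 and 0, all at or under the floor. *SNAI1*, a repressor of epithelial genes of the same class, was above it with 42, 27 and 49 reads, or 18.5 ± 4.71 normalized counts per kilobase (SD, n = 3), though not expressed by the rule. *TWIST1* was the highest of 9 mesenchymal genes at 430 ± 5.89 normalized counts per kilobase, followed by *VIM* at 148 ± 5.93 and *CDH2* at 47.2 ± 6.43 (SD, n = 3), and 4 of the 9 were expressed.

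Because *FOXA2* is also known from neuroendocrine tumours, genes of that cell type were read beside it. The neuroendocrine factors *NEUROD1* and *INSM1* had 0 reads in every library. Of the 5 expressed genes of that list, *ONECUT2* and *POU3F2*, both developmental transcription factors, were highest in replicate 2, as *FOXA2* was, and *SYP*, *CHGA* and *DLL3* were not. *ONECUT2* had 3566.3, 3930 and 3199.5 normalized counts in replicates 1, 2 and 3 (unadjusted p 0.00145, adjusted p 0.204, trended-dispersion test with edgeR), and *POU3F2* had 209.4, 261.5 and 224.4 (adjusted p 1.00). *SYP*, *ONECUT2* and *CHGA* led the list of 9 genes per kilobase, at 1449 ± 20.8, 217 ± 22.2 and 58.6 ± 4.46 normalized counts (SD, n = 3), and 5 of the 9 were expressed. Of 14 markers of stromal, endothelial and immune cells with a row, 4 were expressed, led by *LUM* at 60.1 ± 6.86, *ACTA2* at 51.1 ± 15.1 and *COL1A1* at 44.1 ± 2.91 normalized counts per kilobase (SD, n = 3). *PTPRC*, the common leukocyte antigen, had 1, 0 and 1 reads, and *PECAM1* had no row. The summed level of this list was 572 to 678 normalized counts, and its part in the levels of *PBX3*, *GATA3* and *MEIS1* was not tested.

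The protein-coding genes nearest in level to each expressed factor were found among 12180 others, by the largest of the 3 absolute log2 differences in level per kilobase between gene and factor. Nearest to *FOXA1* were *COPE*, a subunit of the COPI coat, at 0.01 and *CNBP* at 0.02. *BIRC5* (survivin) and the bromodomain gene *BRD2* each lay at 0.02 from *GATA2*, and *COQ8B* and *GOLGA7* at 0.02 from *GRHL2*. For *PBX3* they were *IGFLR1* at 0.03 and the BMP receptor *BMPR1B* at 0.04, for *GATA3* the sialyltransferase *ST3GAL5* at 0.05 and *ZNG1C* at 0.09, and for *MEIS1* *NKPD1* and the corepressor *TLE1*, each at 0.08. With 3 libraries of a single condition, this is likeness of level and not of response.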

How the data were processed

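The RNA of 22Rv1 WT cells was measured by paired-end sequencing in 3 libraries. The authors used HISAT2 for mapping (GRCh37), HTSeq for counting on GENCODE genes and DESeq2 for normalization. What they deposited is a gene-level signal in normalized counts, reads divided by the size factor of a library, to 1 decimal. The GENCODE release and strand setting are not given in the sources used here. Whole reads were recovered from the step between low values, and 100% of the values above 0 came out whole within rounding. Neighbouring rows with identical reads in the 3 libraries, not all at 0, were merged, which took 29000 rows to 27024 genes and removed 10.6% to 10.7% of the reads of a library. For the 9 factors no row was merged. Counts set the precision of each value, at 35675670 to 38629080 reads a library.

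CPM used TMM sizes from edgeR 4.0.16 (R 4.3.3), with DESeq2 1.42.0 size factors as an alternative. Spread over libraries was tested by a negative binomial Pearson chi-square with edgeR's trended dispersion and an intercept only, where a gene averaged 10 or more reads, at an adjusted p of 0.05. The test was first run on simulated counts with known changes. Transcript lengths and positions came from GENCODE v44 annotation lifted to GRCh37, with 1 canonical transcript a gene, and promoters from RefSeq. Of the canonical transcripts, 1.12% of the 100-base windows of *MEIS1* and 5.12% of those of *MEIS2* also occur in an antisense gene, and none of the other 7 factors in any other gene. scipy 1.17.1, numpy 2.4.6, pandas 2.3.3 and matplotlib 3.10.9 were used.

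The members and gene lists were chosen with earlier results of these data known. Genes named are the 9 factors, the lists of their families and partners, the 5 highest other forkhead genes, the 3 highest and the defining markers of each list, and the 2 coding genes nearest in level to each expressed factor. *MSMB*, *RAB25*, *FOXJ1*, *SNAI1*, *POU3F2*, *DLL3*, basal markers at 0, the low GRHL2 opponents and genes overlapping a factor were named after their values were seen. Some genes that this rule names are not reported here. Since the values were normalized counts, the tests used the recovered reads. Alternatives were other scalings, minimum counts, dispersions and lengths, unmerged rows and leaving out each replicate. The labels and files name no batch.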

Additional observations from a re-analysis of the deposited data

How the results depend on the processing

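Under 3 other scalings, set to the same overall scale, levels of the factors moved by less than 1 SD, and *TP63* stayed at 0. Leaving out 1 of 3 libraries cannot move a mean by 1 SD, so it gives no measure of stability by that limit. *FOXA2*, for example, fell from 4.77 to 0.8 normalized counts without replicate 2. The number of expressed factors was 6 under each alternative, and expressed genes numbered 12877 to 14021, the main count of 12877 holding under other library sizes because these moved no whole-read limit. The place of each factor in the order per kilobase stayed the same with exon-union lengths. Leaving out a replicate could not change it, since the order was the same within every library, so that gives no measure of its stability. Shares within a family depended on length. With the union of exons *FOXA1* took 99.7% of its family, *GATA2* 88.4%, *GATA3* 3.20%, *GRHL2* 92.3% and *PBX3* 13.0%. With no division by length the shares were 99.9% for *FOXA1*, 90.2% for *GRHL2*, 48.0% for *MEIS1* and 13.0% for *PBX3*. The share of *FOXA2*, 0.0518%, was 0.00857% without replicate 2, and that of *MEIS2*, 0.483%, was 0.199% without it.

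The number of genes that varied between libraries, 51, was 489 with the common dispersion and 6141 with sampling noise alone, which by construction allows no spread beyond counting. The cause of the difference under the common dispersion was not tested. With a replicate left out, and so fewer libraries compared, it was 20 to 39 (20 without replicate 2 and 20 without replicate 3). Of the factors, 2 varied under sampling noise alone and 0 under the other settings. No paired analysis was possible because only 1 group was analysed. Depth limits *MEIS2* and *TP63* in every library and *FOXA2* in replicates 1 and 3, and counts at or under the floor of 3 reads were not taken as detection. *FOXA2* exceeded the floor only in replicate 2, with 15 reads.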

Other observations

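The uneven reads of *FOXA2* were set beside all genes, a comparison chosen after they had been seen. With at least 15 reads in replicate 2 and at most 1 read in each other library, *FOXA2* was the only gene of 27024. For replicate 1 there was no such gene and for replicate 3 there were 4, among them the forkhead gene *FOXJ1*, a factor of motile cilia, with 1, 1 and 19 reads. With a limit of 10 reads the numbers were 12, 9 and 19 genes for replicates 1, 2 and 3. The limit of 15 is the count of *FOXA2* itself. *ZFPM2*, the GATA cofactor with 1, 0 and 12 reads, met the lower limit in replicate 3.

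*TFCP2*, a broadly expressed relative of GRHL2 in most tissues, had 15, 9 and 6 reads, or 2.12 ± 0.952 normalized counts per kilobase (SD, n = 3). Its paralogue *UBP1* had 811 ± 6.26 per kilobase (SD, n = 3). Overlaps with other genes were searched only for the 9 factors, so an effect of counting on *TFCP2* was not tested. *MEIS3* had the lowest unadjusted p of the family lists in the trended-dispersion test with edgeR, 0.00898 (adjusted p 0.559), with 149, 60 and 135 reads.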
